A study of Mus musculus with 54 samples.

Results

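Whole lungs of mice given a low dose of bleomycin were compared with whole lungs of PBS mice at day 14. The 6 libraries, 3 per group, are all the lungs of these 2 groups among the 54 libraries of the study, and every gene of their expression table was considered. All 6 mice were wild-type male C57BL/6 animals aged 10 to 12 weeks that drank normal water. The bleomycin group (labelled BLM_NW) had received 1.25 mg/kg bleomycin into the trachea 14 days before the lungs were taken, and the control group (PBS_NW) had received PBS. Both groups carry the same batch label. Unless stated, the SE and p-values come from a fit to 9 libraries, which also holds the lungs of a group labelled BLM_BCAA. Those mice had received 1.25 mg/kg bleomycin and drank water with 3 mM branched-chain amino acids, started 7 days beforehand. They counted in the filter and in the estimate of the spread, but not in the difference. The study as a whole asks about branched-chain amino acids in lung fibrosis; here the question is what the injury alone did to the lung transcriptome.

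Bleomycin breaks DNA, and given into the airway it injures the alveolar lining. An early inflammation is followed by a repair phase, in which macrophages recruited from the blood mature in the injured alveoli and fibroblasts lay down collagen, fibronectin, tenascin and elastin. In mice the second week after a dose is usually a time of active matrix production.

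The values are TPM, in which each library is scaled to the same total and each gene is corrected for its length, so that levels can be compared between genes. Depth is unknown, since no read counts were used here. Between 23314 and 24355 genes had a value above 0, and mitochondrial transcripts made up 8.16 to 14.4% of a library. The extraction text names heart tissue, but the markers are those of lung: Sftpc, the surfactant protein made by alveolar type 2 cells, stood at 33776 to 35779 TPM in PBS lungs, while the heart muscle markers summed to between 92.9 and 351 TPM over the 6 libraries. Scgb1a1, the main secretory protein of airway club cells, took 13.5 to 24.4% of all TPM in PBS lungs and 4.89 to 10.9% in bleomycin lungs, so that the shares of all other genes move with it. Across genes, log2 values correlated at 0.975 to 0.977 within the PBS group, 0.962 to 0.974 within the bleomycin group and 0.915 to 0.943 between groups. Bleomycin mouse 2 stood apart from the other bleomycin lungs in neutrophil genes, in Scgb1a1 and in its mitochondrial share of 8.16%. PBS mouse 1 differed from the other PBS lungs as well, with a mitochondrial share of 8.43% against 12.1 and 13.5% and a Scgb1a1 share of 24.4% against 15.4 and 13.5%.

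The promoters of 5 genes are shown first, because their genes stand for groups in which most members moved the same way: the stress genes Srxn1, Slc7a11, Chac1 and Asns, which were lower after bleomycin, and the mitosis gene Cdk1, which was higher. The sequences are from RefSeq (build GRCm38.p6), run from upstream of the annotated start to a short way into the transcript, 300 bases in all, and are written 5′ to 3′ on the gene's strand. They lie at chr2:152105274-152105573 (plus strand) for Srxn1, chr3:50443564-50443863 (minus strand) for Slc7a11, chr2:119350992-119351291 (plus strand) for Chac1, chr6:7693160-7693459 (minus strand) for Asns and chr10:69352863-69353162 (minus strand) for Cdk1. Capitals mark matches, on either strand, to the antioxidant response element in Srxn1 (TGACNNNGC, and TGANTCAGC), to the C/EBP-ATF response element core TGATGNAA in Slc7a11, Chac1 and Asns, and to the cell cycle homology region TTTGAA and the CCAAT box CCAAT in Cdk1.
Srxn1: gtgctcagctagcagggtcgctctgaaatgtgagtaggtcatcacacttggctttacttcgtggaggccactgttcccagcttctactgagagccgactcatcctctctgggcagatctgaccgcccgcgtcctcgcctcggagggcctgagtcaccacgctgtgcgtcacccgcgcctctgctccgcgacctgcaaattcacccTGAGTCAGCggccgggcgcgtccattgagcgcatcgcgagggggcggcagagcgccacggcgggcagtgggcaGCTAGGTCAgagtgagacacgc
Slc7a11: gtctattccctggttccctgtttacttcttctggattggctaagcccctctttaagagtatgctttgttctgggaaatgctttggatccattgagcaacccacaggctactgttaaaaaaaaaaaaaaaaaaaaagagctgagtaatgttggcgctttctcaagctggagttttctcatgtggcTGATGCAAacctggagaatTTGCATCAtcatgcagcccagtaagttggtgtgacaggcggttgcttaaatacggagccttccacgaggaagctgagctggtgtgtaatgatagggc
Chac1: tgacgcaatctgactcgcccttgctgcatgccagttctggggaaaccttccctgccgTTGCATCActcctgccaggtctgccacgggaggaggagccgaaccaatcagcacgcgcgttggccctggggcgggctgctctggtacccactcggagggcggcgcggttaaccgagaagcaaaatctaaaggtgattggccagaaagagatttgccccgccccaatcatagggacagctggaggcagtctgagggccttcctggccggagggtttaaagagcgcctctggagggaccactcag
Asns: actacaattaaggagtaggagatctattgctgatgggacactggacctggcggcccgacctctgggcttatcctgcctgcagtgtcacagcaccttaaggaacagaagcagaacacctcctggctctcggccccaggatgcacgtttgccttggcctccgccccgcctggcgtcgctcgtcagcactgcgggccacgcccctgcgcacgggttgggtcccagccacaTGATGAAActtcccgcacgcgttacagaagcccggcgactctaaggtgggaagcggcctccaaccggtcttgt
Cdk1: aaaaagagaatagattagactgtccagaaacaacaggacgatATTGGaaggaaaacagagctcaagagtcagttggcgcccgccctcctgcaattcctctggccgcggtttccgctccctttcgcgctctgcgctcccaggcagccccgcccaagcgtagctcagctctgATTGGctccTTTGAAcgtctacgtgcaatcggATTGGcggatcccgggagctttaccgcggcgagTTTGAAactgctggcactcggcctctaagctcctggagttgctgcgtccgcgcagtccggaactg

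Of the 17209 genes tested, 11779 had a RefSeq promoter in the table used. TTTGAA was present in 23 of 29 cell division promoters against 14.9% of all 11779, and CCAAT in 24 of 29 against 42.1%. TGATGNAA was present in 9 of 30 promoters of the amino acid shortage list against 2.94% of all. The antioxidant element gave less: TGACNNNGC was found in 7 of 25 antioxidant promoters against 16.9% of all, and in 12 of 30 of the amino acid shortage list. TGANTCAGC, a spelling added after the counts for the first spelling and the promoter sequences had been seen, was found in 2 of 25 against 1.48%. The spellings overlap in part. A match is a description of these letters and not a binding site.

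Bleomycin changed 21.9% of all genes tested. Of 17209 genes, 3773 passed an adjusted p of 0.05 in limma, with 2555 higher (14.8%) and 1218 lower (7.08%) after bleomycin; 906 rose and 554 fell by at least 1 on the log2(TPM + 1) scale. In 2533 of the higher and 1192 of the lower genes the 3 bleomycin lungs lay wholly outside the range of the 3 PBS lungs. Among all 17209 genes, called or not, the bleomycin lungs lay wholly above in 4251 and wholly below in 2494. The median change of all genes was 0.0855. Members named below as called passed the same threshold, and list counts are to be read against these shares: in the 25 lists of 5 or more members in which none fell, 7 of 354 members were lower at an unadjusted p under 0.05, and in the 6 lists in which none rose, 1 of 75 was higher. The balance of the directions depends on the scaling: when every library was centred on its own median log2 ratio, 2462 genes were higher and 2116 lower, and after mitochondrial, haemoglobin and Scgb1a1 transcripts were taken out of the total, 1858 were higher and 2286 lower. That last scaling shifted the median of all genes by -0.163, so that under it each gene's change was lower by about that amount. Without PBS mouse 1 there were 1664 higher genes, and without PBS mouse 2 or PBS mouse 3 there were 675 and 730 lower genes.

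**Figure D1:**
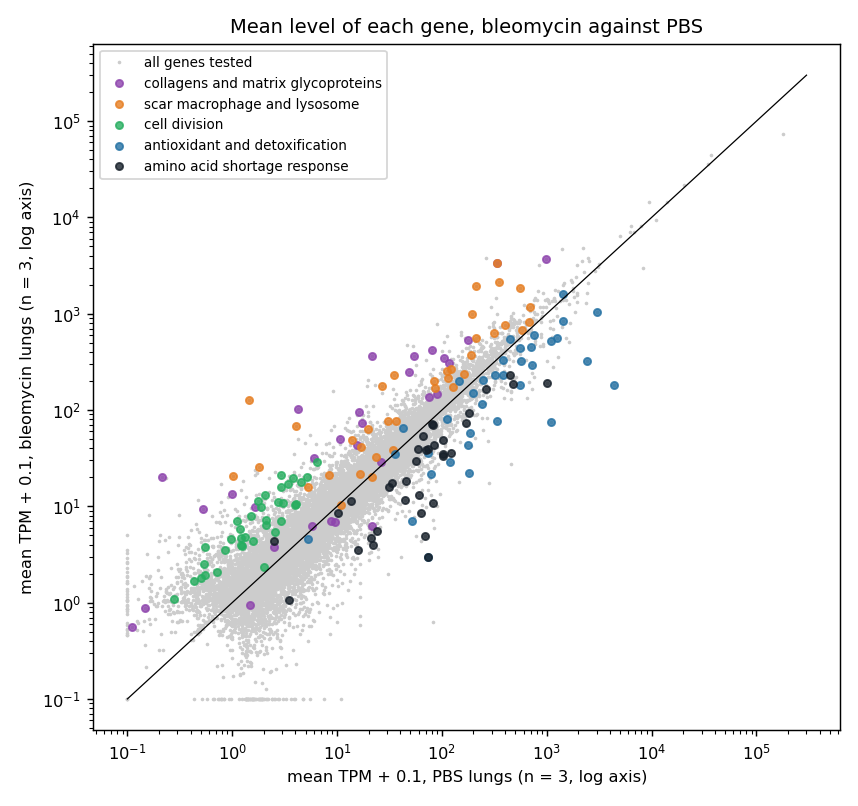
Mean TPM (plus 0.1) of each gene in the 3 PBS lungs (x axis) and the 3 bleomycin lungs (y axis), both on log axes; grey points are all genes tested, coloured points are members of gene lists and the line marks equal levels. Cell division, matrix and scar macrophage genes lie mostly above the line, and antioxidant and amino acid shortage genes mostly below it.

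The largest rise was in a macrophage gene. Mmp12, the macrophage elastase, stood at 1.04, 1.22 and 1.76 TPM in PBS lungs and at 213, 87.0 and 78.9 TPM in bleomycin lungs, a rise of 5.63 ± 0.47 (SE, log2 scale, adjusted p = 4.4e-05). Bleomycin mouse 1 was the highest, and the lowest bleomycin lung was still far above every PBS lung. Of 12 markers of scar-associated macrophages, the lipid-laden cells found beside fibrotic tissue, 10 rose and none fell, with a list median of 2.61. Gpnmb, a glycoprotein of lysosome-rich macrophages, went from 3.24, 4.25 and 4.34 TPM to 65.0, 70.7 and 70.0 TPM (rise of 3.82 ± 0.36, adjusted p = 7.9e-05). Spp1, which encodes osteopontin, went from 285, 443 and 276 TPM to 3042, 3653 and 3317 TPM (3.34 ± 0.20, adjusted p = 5.1e-06). For both genes the 3 bleomycin lungs lay close together and above every PBS lung. Trem2, a lipid receptor of the same cells, rose by 3.30 and Arg1, the arginase of alternatively activated macrophages, by 3.39. In whole tissue, more cells of a type and more RNA per cell cannot be told apart.

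Markers of interstitial macrophages and genes of lysosomes rose in part as well. Of 10 interstitial macrophage markers 6 rose (median 1.41), led by C1qb, a chain of complement C1q, which went from 40.4, 51.0 and 46.5 TPM to 412, 585 and 408 TPM (3.31 ± 0.19, adjusted p = 4.5e-06). C1qa rose by 3.08. Retnla, a secreted protein of alternatively activated macrophages, went from 275, 276 and 240 TPM to 4808, 3582 and 2975 TPM (3.81 ± 0.24, adjusted p = 6.3e-06). Clec4n, a C-type lectin receptor, rose by 3.93 and H2-M2, a non-classical class I gene, by 3.42. Of 30 genes of lysosomes and lipid handling, 24 rose and none fell (median 1.24); Ctss, a lysosomal protease of antigen presentation, rose by 3.21, from 179 to 247 TPM in PBS lungs up to 1714 to 2360 TPM. Monocyte markers had 2 of 8 higher and 1 lower (median 0.04); 1 rose without bleomycin mouse 1 or 2, and none fell without PBS mouse 1, PBS mouse 3, bleomycin mouse 1 or bleomycin mouse 3.

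Resident alveolar macrophage markers were split. Of 10 markers 2 rose and 5 fell (median -0.43). Fabp1, a fatty acid binding protein, went from 9.24, 12.7 and 7.49 TPM to 0.881, 1.05 and 0.605 TPM (fell by 2.53 on the log2 scale, adjusted p = 4.9e-05), and Krt79 fell by 1.65. Atp6v0d2, a subunit of the lysosomal proton pump, rose by 2.26, so the list did not move as a block.

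Genes of antigen presentation and some chemokines rose as well. Of 13 class II genes 10 rose and none fell (median 1.32). Cd74, the class II invariant chain, went from 825, 926 and 797 TPM to 2766, 3646 and 3099 TPM (1.89 ± 0.20, adjusted p = 1.6e-04), with no overlap. Of 17 CC chemokines tested, 7 rose and 1 fell (0 fell without PBS mouse 2 or bleomycin mouse 3): Ccl8 rose by 2.95, while Ccl2, the monocyte attractant, was at 2.42 to 21.1 TPM in PBS and 21.1 to 67.3 TPM in bleomycin lungs and did not pass (1.54 ± 0.88, adjusted p = 0.24; 0.67 without PBS mouse 2 and 1.02 without bleomycin mouse 2). Cxcl9, an interferon-induced chemokine, rose by 2.00. Of 30 interferon response genes 12 rose and none fell (median 0.70), with Isg15 the leading member at 1.83. Of 16 chemokine receptors 7 rose, 4 without PBS mouse 1 or bleomycin mouse 3, among them Cx3cr1, the fractalkine receptor, by 2.02. Of 21 complement genes 8 rose and 1 fell; 5 rose without PBS mouse 1 or bleomycin mouse 2, and the fall was lost without any 1 lung other than bleomycin mouse 3.

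Counts of lymphoid and dendritic cell markers changed when 1 lung was left out. Of 12 T cell markers 4 rose (2 without PBS mouse 1 or bleomycin mouse 2), including Foxp3, the regulatory T cell factor, which was at 0.168 to 0.241 TPM in PBS and 1.24 to 1.84 TPM in bleomycin lungs (1.05 ± 0.21, adjusted p = 0.0060). Of 7 B cell markers 3 rose (1 without bleomycin mouse 3), led by Cd22 at 1.36. Of 6 natural killer cell markers 0 passed in limma, and 0 had an unadjusted p under 0.05 in either direction; 1 rose without PBS mouse 3. Of 10 plasma cell genes 5 rose, but 1 did without PBS mouse 1, bleomycin mouse 2 or bleomycin mouse 3, 2 without PBS mouse 2 and 3 without PBS mouse 3. Of 10 dendritic cell markers 6 rose (3 without PBS mouse 1 or bleomycin mouse 3), led by Fscn1, an actin bundler of migrating dendritic cells, at 2.70.

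Neutrophil genes did not follow the groups. S100a8, a calcium-binding protein of neutrophils, was at 832, 251 and 930 TPM in PBS lungs and at 7.02, 565 and 20.5 TPM in bleomycin lungs, and S100a9, its partner, ran in parallel. Bleomycin mouse 2 was higher than PBS mouse 2, so the groups overlapped and neither gene passed (adjusted p = 0.076 and 0.077). The 10 markers summed to 3875, 1334 and 4131 TPM in PBS lungs and to 113, 2738 and 161 TPM in bleomycin lungs. Of the 10, only Csf3r, the G-CSF receptor, was called, and it fell by 3.29 (adjusted p = 0.0057); without bleomycin mouse 2 a total of 8 of the 10 fell, and the change of S100a8 was -5.46 (adjusted p = 0.0025). Slfn4, a myeloid gene among the 12 largest falls, showed the same high value in bleomycin mouse 2, with 1.35, 10.1 and 1.22 TPM after bleomycin against 43.5 to 86.2 TPM in PBS lungs. S100a8 and S100a9 were chosen after their values had been seen.

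Matrix genes rose together. Tnc, tenascin C, a matricellular protein of injured tissue, went from 3.35, 4.43 and 4.73 TPM to 114, 94.5 and 101 TPM (4.34 ± 0.18, adjusted p = 7.1e-07). Fn1, fibronectin, went from 19.2, 19.5 and 25.6 TPM to 467, 408 and 216 TPM (3.96 ± 0.26, adjusted p = 8.6e-06), with bleomycin mouse 3 the lowest of its group. Thbs4, a thrombospondin, was at 0.0777 and 0.261 TPM in PBS mice 1 and 3, was listed at 0 in PBS mouse 2, and stood at 15.4 to 22.8 TPM in bleomycin lungs (adjusted p = 7.5e-06). Of 20 matrix glycoproteins and matricellular proteins, 14 rose and 1 fell (median 1.57). Postn, periostin, was higher in all 3 bleomycin lungs, at 115 to 201 TPM against 72.5 to 104 TPM, but did not pass (0.67 ± 0.24, adjusted p = 0.067; 0.41 without bleomycin mouse 1).

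Of 10 fibrillar collagens tested 7 rose and none fell (median 2.11). Col1a1, a chain of type I collagen, went from 41.6, 70.7 and 51.2 TPM to 395, 406 and 289 TPM (2.73 ± 0.23, adjusted p = 4.6e-05), and Col3a1, type III collagen, rose by 2.41. Of 12 other interstitial collagens 10 rose (median 1.46), as did 13 of 22 basement membrane genes (median 0.86), led by the laminin gene Lama1 at 2.41. None fell in either list. The enzymes that modify and crosslink collagen followed, with 18 of 25 higher and none lower (median 0.78); P4ha3, a prolyl hydroxylase subunit, rose by 2.86 and Loxl2, a lysyl oxidase, by 1.85.

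Elastic fibre genes also rose, 10 of 15 against 1 lower (median 1.33). The fall, of Ltbp4, a latent TGF-beta binding protein named after its values were seen (adjusted p = 0.043), was lost without any 1 of the 6 lungs. Eln, elastin, was at 80.6, 118 and 72.4 TPM in PBS lungs and at 1017, 937 and 391 TPM in bleomycin lungs (3.01 ± 0.32, adjusted p = 1.6e-04). All 3 bleomycin lungs exceeded all PBS lungs by a wide margin. Mfap5, a microfibril protein, rose by 2.10. Among the small leucine-rich proteoglycans, which regulate collagen fibril spacing, 5 of 10 rose and 2 fell (1 without any 1 lung other than PBS mouse 1); Lum, lumican, rose by 2.78. Of 25 matrix proteases and their inhibitors 16 rose and 1 fell (median 1.44); 2 fell without bleomycin mouse 2 and 0 without any 1 of the other lungs. Timp1, an inhibitor of metalloproteinases, was at 34.7, 31.6 and 146 TPM in PBS lungs and at 287 to 358 TPM in bleomycin lungs (2.55 ± 0.45, adjusted p = 0.0028), with PBS mouse 3 well above the other PBS lungs.

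Markers of fibrotic fibroblasts rose in 10 of 12 cases (median 2.00). Grem1, a BMP antagonist, went from 0.431, 0.365 and 0.310 TPM to 15.6, 9.90 and 9.08 TPM (3.16 ± 0.20, adjusted p = 7.5e-06). Fst, follistatin, which binds activin, rose by 3.04 and Cthrc1, a secreted collagen-triple-helix protein, by 2.26. The contractile genes did not share this: 3 of 17 rose and 1 fell (median 0.19; 0 fell without PBS mouse 1, PBS mouse 2, bleomycin mouse 2 or bleomycin mouse 3). Acta2, smooth muscle actin, was at 316, 365 and 273 TPM in PBS and 565, 245 and 364 TPM in bleomycin lungs, which overlap (0.23 ± 0.28, adjusted p = 0.60), and its change was -0.08 without bleomycin mouse 1, 0.52 without bleomycin mouse 2 and 0.12 without PBS mouse 3. Alveolar and adventitial fibroblast markers were split, with 3 of 12 higher and 4 lower.

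In the TGF-beta pathway, the main pro-fibrotic signal, 11 of 25 genes rose and 2 fell (median 0.50). Itgb6, the integrin chain on epithelium that frees TGF-beta from its latent complex, went from 16.3, 21.4 and 24.2 TPM to 91.7, 54.2 and 80.0 TPM (1.80 ± 0.21, adjusted p = 2.3e-04). The TGF-beta target Ccn2, connective tissue growth factor, rose by 1.65.

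**Figure D2:**
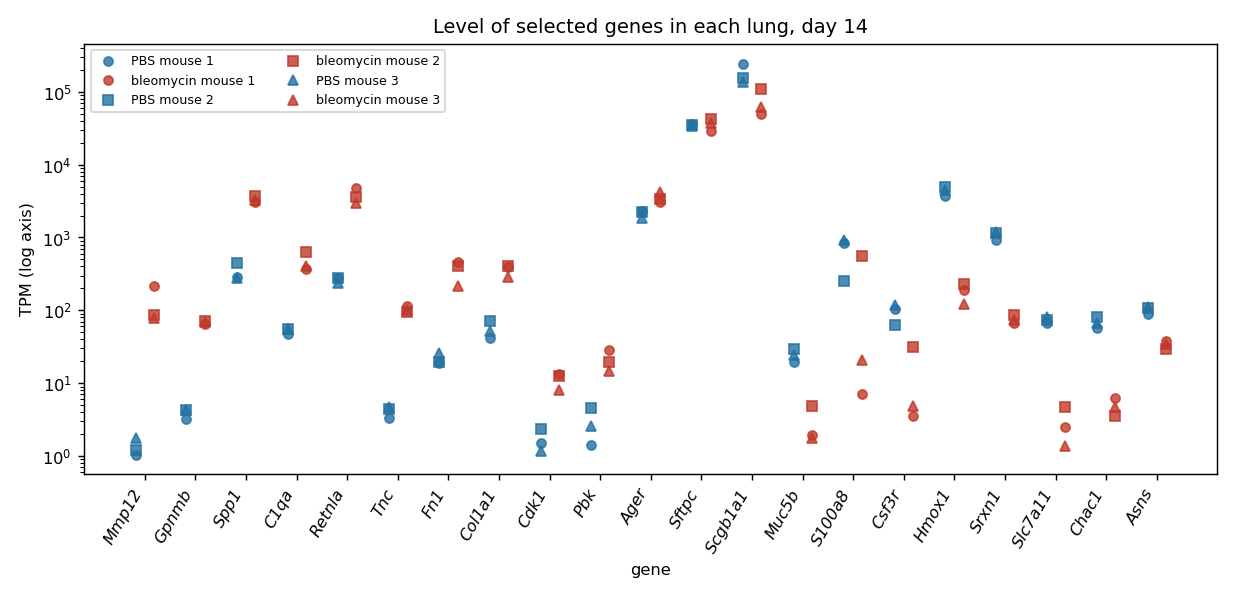
TPM (log axis) of 21 genes in each lung; blue symbols are the 3 PBS mice and red symbols the 3 bleomycin mice, with 1 symbol shape per mouse number. Macrophage and matrix genes are higher in every bleomycin lung, stress genes from Hmox1 to Asns are lower in every bleomycin lung, and S100a8 runs from 7.02 to 565 TPM within the bleomycin group.

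Cell division genes rose as a block. Of 36 genes of mitosis tested 35 rose and none fell, with a median of 1.36, and between 26 and 35 rose when 1 lung was left out. Cdk1, the kinase that drives entry into mitosis, went from 1.50, 2.35 and 1.19 TPM to 13.6, 12.4 and 8.11 TPM (2.20 ± 0.23, adjusted p = 1.3e-04). Pbk, a mitotic kinase, rose by 2.55 and Mki67, the proliferation antigen, by 1.72. The levels were low in absolute terms, with the whole list summing to 53.8 to 96.0 TPM in PBS and 207 to 414 TPM in bleomycin lungs. Of 29 DNA replication genes 19 rose and none fell (median 0.88); Rrm2, a subunit of ribonucleotide reductase, rose by 2.11.

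In the list of senescence genes and targets of p53, the factor activated by DNA breaks, 3 of 30 rose and 7 fell (median -0.22). The rises were in the senescence loci Cdkn2a and Cdkn2b and in Zmat3, a p53 target, which rose by 0.77. The count of falls was 3 without PBS mouse 3 or bleomycin mouse 1, 4 without PBS mouse 1, PBS mouse 2 or bleomycin mouse 3, and 11 without bleomycin mouse 2. Cdkn1a, the cell cycle inhibitor p21, was at 463, 526 and 436 TPM in PBS and 256, 591 and 318 TPM in bleomycin lungs and did not pass (-0.38 ± 0.27, adjusted p = 0.34); without bleomycin mouse 2 it fell by 0.73 (adjusted p = 0.018), and without bleomycin mouse 1 its change was -0.13. Cdkn2a, which encodes cell cycle inhibitors, rose from 0.353 to 0.763 TPM up to 4.57 to 11.6 TPM (2.47 ± 0.28, adjusted p = 2.2e-04). Plk3, a stress-responsive kinase, fell by 2.07. Of the falls, Sesn2 (-1.57) and Gdf15 (-1.36) are also in the amino acid shortage list.

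Alveolar and airway genes of the epithelium differed in direction. Sftpc, the surfactant protein gene, was at 33776 to 35779 TPM in PBS and 29023 to 42256 TPM in bleomycin lungs and did not pass (0.03 ± 0.21, adjusted p = 0.93); its sign turned without bleomycin mouse 2 (-0.09), after centring (-0.06) and in the scaling without Scgb1a1 (-0.15). Of 11 alveolar type 2 markers 3 rose, 5 without PBS mouse 3, and none fell. Napsa, a protease that processes surfactant proteins, went from 163, 166 and 165 TPM to 266, 319 and 294 TPM (0.82 ± 0.13, adjusted p = 0.0013). Of 10 alveolar type 1 markers 7 rose and none fell (median 0.78). Pdpn, podoplanin of flat type 1 cells, rose by 1.41 and Spock2 by 1.27. Ager, the classical type 1 marker, went from 2343, 2258 and 1857 TPM to 3033, 3382 and 4215 TPM (0.71 ± 0.17, adjusted p = 0.014), but adjusted p was 0.055 without PBS mouse 3 and 0.057 without bleomycin mouse 3. It was 0.058 after centring, 0.063 in the scaling without Scgb1a1 and 0.12 without the filter.

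Club and secretory genes fell in 5 of 8 cases and none rose (median -1.48). Muc5b, an airway mucin, went from 19.6, 29.3 and 24.5 TPM to 1.93, 4.83 and 1.79 TPM (fell by 2.80 on the log2 scale, adjusted p = 1.4e-04). Bpifa1, an airway defence protein, fell by 2.45 and Cyp2f2, a club cell cytochrome, by 1.59. Scgb1a1 was at 243727, 154164 and 135067 TPM in PBS and 48908, 108879 and 62321 TPM in bleomycin lungs (-1.31 ± 0.38, adjusted p = 0.031). Its groups did not overlap, but the call was lost without any of PBS mice 1 and 2 and bleomycin mice 1 and 3, with adjusted p between 0.068 and 0.119, after centring (0.087), with the 6 compared libraries alone (0.055) and without the filter on low values (0.66). Scgb1a1 was picked out after its share of the libraries had been seen. Of 9 ciliated cell markers 3 fell, 1 without PBS mouse 1, PBS mouse 2 or bleomycin mouse 1.

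Genes of the transitional state between type 2 and type 1 cells were split, with 4 of 11 higher and 5 lower. Krt8, the keratin that names this state, was at 881, 1271 and 1100 TPM in PBS and 572, 642 and 896 TPM in bleomycin lungs, which overlap slightly, and did not pass (-0.63 ± 0.21, adjusted p = 0.051). Its adjusted p was 0.044 without PBS mouse 1, 0.025 without bleomycin mouse 3, 0.035 after centring and 0.017 in the scaling without Scgb1a1, always lower. Sfn, the 14-3-3 sigma protein, fell by 1.80, while Itgb6 (above) and Hbegf, an EGF receptor ligand, which rose by 1.32, went up. Sprr1a, a cornified envelope protein of stressed epithelium, went from 1.11, 7.01 and 4.43 TPM to 22.4, 45.4 and 82.9 TPM (3.32 ± 0.51, adjusted p = 0.0013).

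Vessel markers differed by type. Of 5 lymphatic markers 4 rose (median 1.02); Ccl21a, the lymphatic chemokine that guides dendritic cells, went from 82.6, 129 and 99.5 TPM to 523, 533 and 462 TPM (2.30 ± 0.18, adjusted p = 3.2e-05). Ccl21a belongs to a family of near-identical gene copies, so its reads may be shared between them. Of 7 venous and systemic vessel markers 4 rose, led by Ackr1, a chemokine-binding receptor of venules, at 2.81. Of 7 general capillary markers 1 rose, and of 7 aerocyte markers 1 rose and 2 fell. Both rises were lost without bleomycin mouse 3, and 1 aerocyte marker fell without PBS mouse 2 or bleomycin mouse 2. Of 25 genes of angiogenesis and vascular tone 7 rose and 1, Ednrb, fell (-0.76). With 1 lung left out between 3 and 9 rose. The count was 4 without PBS mouse 1, PBS mouse 3 or bleomycin mouse 1, and 3 without bleomycin mouse 3. The fall was lost without PBS mouse 2 or bleomycin mouse 2.

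**Figure D3:**
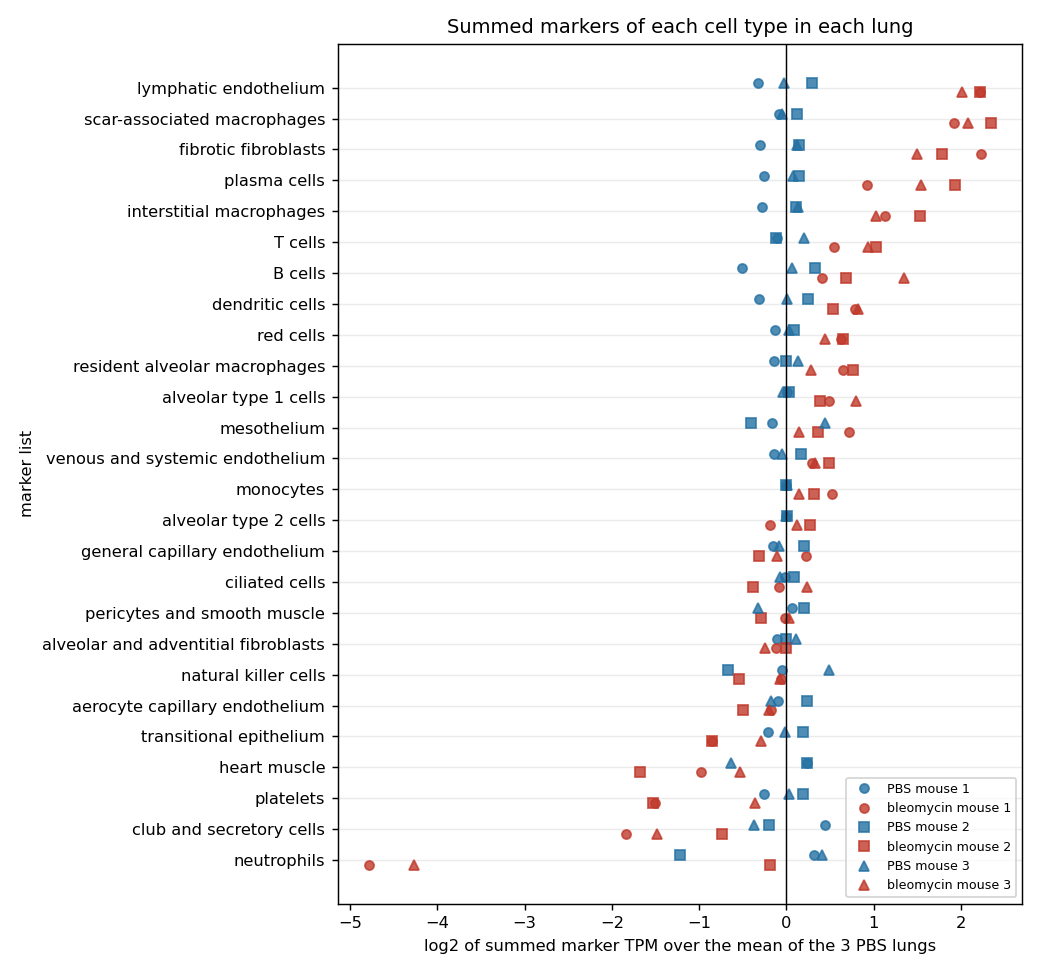
Log2 of the summed TPM of each cell type's markers in each lung, over the mean of the 3 PBS lungs (x axis), for marker lists with at least 4 members tested; blue symbols are PBS mice and red symbols bleomycin mice. Lymphatic, scar macrophage and fibrotic fibroblast sums lie to the right in every bleomycin lung, club cell sums to the left, and the neutrophil sum of bleomycin mouse 2 lies among the PBS lungs.

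The largest falls were in genes of oxidant defence. Hmox1, heme oxygenase, was at 3705, 4937 and 4500 TPM in PBS lungs and at 193, 230 and 122 TPM in bleomycin lungs (-4.62 ± 0.26, adjusted p = 4.5e-06). Srxn1, sulfiredoxin, which restores oxidised peroxiredoxins, went from 924, 1168 and 1180 TPM to 67.0, 86.4 and 73.8 TPM (-3.83 ± 0.15, adjusted p = 7.1e-07). Slc7a11, the cystine importer, went from 67.5, 73.1 and 81.8 TPM to 2.53, 4.70 and 1.37 TPM (-4.37 ± 0.29, adjusted p = 8.3e-06). For all 3 genes every bleomycin lung was far below every PBS lung. In the list of 35 antioxidant and detoxification genes 22 fell and 1 rose (median -1.05; 0 rose without any 1 lung other than PBS mouse 1), and the list summed to 22861 to 24377 TPM in PBS and 9556 to 10138 TPM in bleomycin lungs. Osgin1, an oxidant-induced growth regulator, fell by 4.03. Gsta2, a glutathione transferase, fell by 3.42. Adh7, an alcohol dehydrogenase of epithelium, fell by 3.64. Gclc, which makes the first step of glutathione synthesis and was named after its values were seen, fell by 2.98. Cyp2f2 (above) is in this list and in the club cell list, and the club cell markers fell in the same lungs; their part in the result was not tested.

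Genes of the amino acid shortage response, which the factor ATF4 switches on when uncharged tRNA or stress slows translation, fell in 29 of 35 cases and none rose (median -1.18; 25 to 29 fell with 1 lung left out). Chac1, which breaks down glutathione, went from 57.4, 81.0 and 66.2 TPM to 6.35, 3.55 and 4.70 TPM (-3.57 ± 0.20, adjusted p = 4.5e-06). Asns, asparagine synthetase, went from 88.2, 107 and 110 TPM to 37.4, 29.4 and 34.0 TPM (-1.57 ± 0.17, adjusted p = 1.5e-04). The bleomycin lungs were below every PBS lung for both. Slc7a5 and Slc3a2, the paired chains of the importer of leucine and other large neutral amino acids, fell by 2.80 and 1.34. Slc7a11 (above) is in this list and in the antioxidant list. Trib3, a feedback inhibitor of ATF4 chosen after its values were seen, fell by 2.79. Adm2, a peptide hormone gene outside the list, fell by 3.51.

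Heat shock genes fell too. Hspa1b, an inducible HSP70 chaperone, went from 306, 266 and 279 TPM to 18.9, 12.3 and 20.7 TPM (-3.99 ± 0.23, adjusted p = 4.5e-06), and Hspa1a, its near-identical copy with which it can share reads, fell by 2.75. In the list of 19 immediate early and heat shock genes 7 fell and 1 rose (median -0.50). Fosl1, an AP-1 subunit, was among the 12 largest falls, with a change of -3.37.

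**Figure D4:**
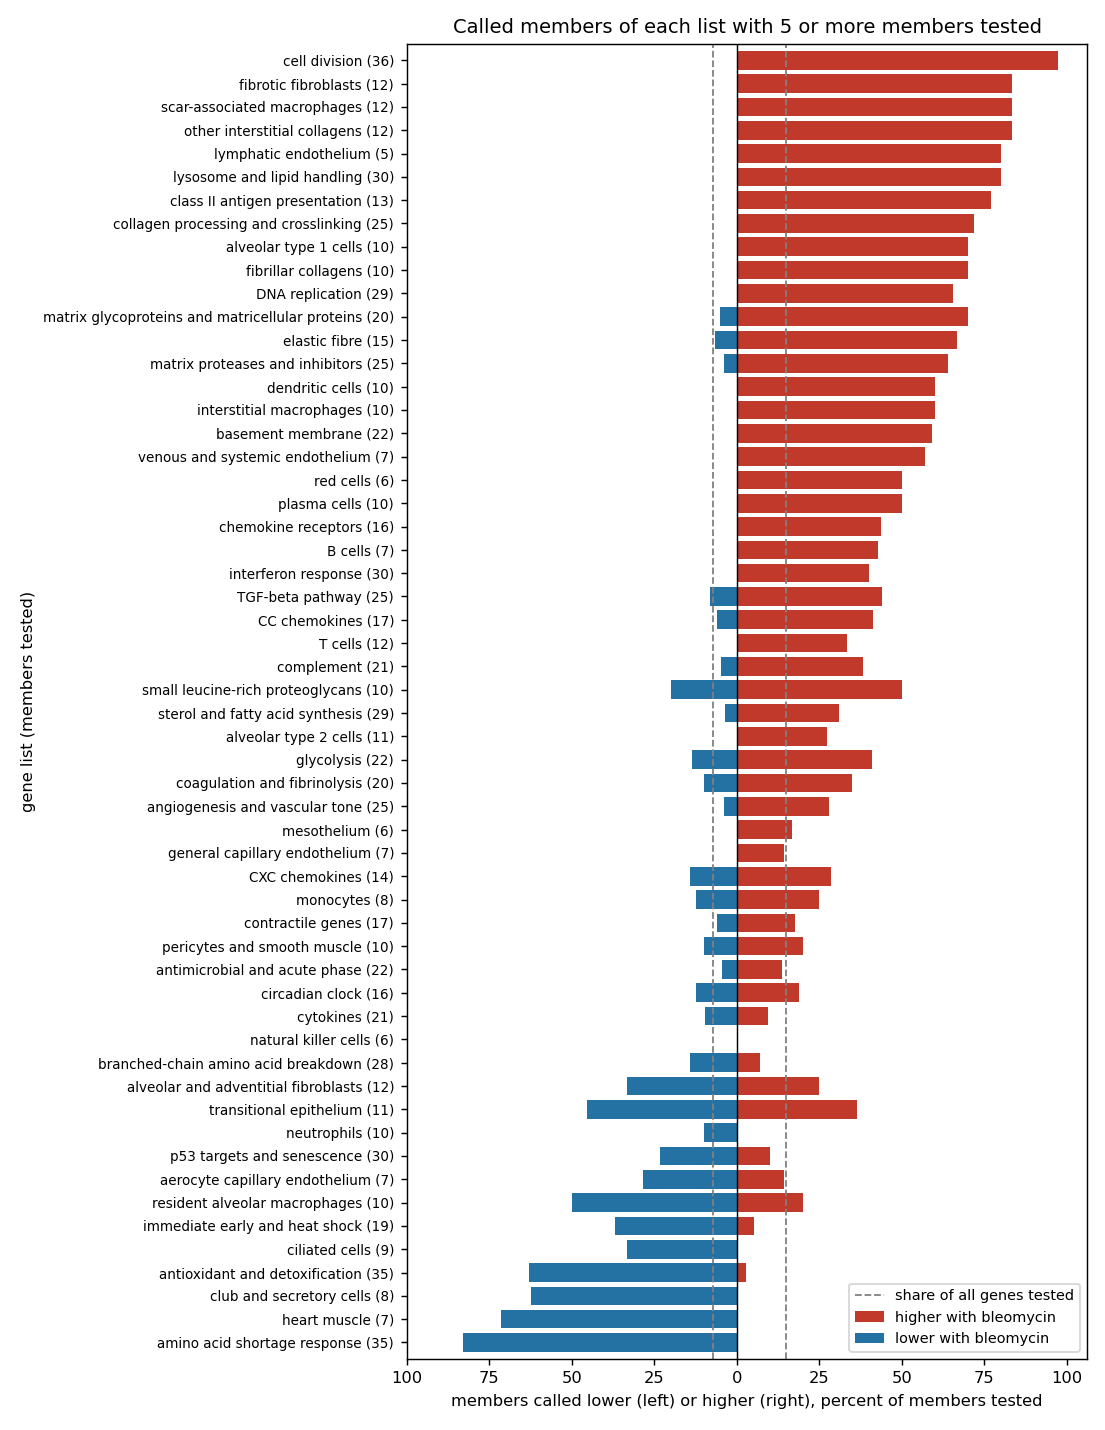
Percent of the tested members of each list (number in brackets), for lists with 5 or more members tested, that were called higher (red, right) or lower (blue, left) after bleomycin in limma; dashed lines mark the shares of all genes tested, 14.8% higher and 7.08% lower. Cell division stands at the top with 35 of 36 higher and the amino acid shortage response at the bottom with 29 of 35 lower.

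Branched-chain amino acid breakdown is the pathway the study asks about. Of its 28 genes 2 rose and 4 fell, a share near the 21.9% of all genes called (median 0.05; 1 rose without bleomycin mouse 2 and 0 without any 1 of the other lungs, and 2 fell without PBS mouse 2, PBS mouse 3 or bleomycin mouse 3), and Slc7a5 and Slc3a2 are among those that fell. Bcat1, a transaminase that starts the pathway, was at 0.0411 to 0.153 TPM in PBS and 0.305 to 0.498 TPM in bleomycin lungs and did not pass (0.31 ± 0.24, adjusted p = 0.38). Every one of these values is below a TPM of 1. Bcat1 thus entered the test only through the third group, bleomycin with branched-chain amino acid water. Bckdk, the kinase that shuts off the branched-chain keto acid dehydrogenase, went from 21.9, 26.8 and 24.5 TPM to 32.4, 30.7 and 37.6 TPM (0.45 ± 0.14, adjusted p = 0.046). Its groups did not overlap, but its adjusted p was between 0.061 and 0.165 without PBS mouse 1, 2 or 3 or bleomycin mouse 1 or 3, and it was 0.149 in the scaling without Scgb1a1.

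Other metabolism shifted in part. Of 22 glycolysis genes 9 rose and 3 fell, 1 without PBS mouse 3, bleomycin mouse 1 or bleomycin mouse 3. Slc2a1, a glucose importer, fell from 74.9, 81.9 and 84.6 TPM to 27.7, 30.5 and 30.3 TPM (-1.42 ± 0.14, adjusted p = 1.1e-04). Scd1, the desaturase that makes oleate, went from 261, 307 and 425 TPM to 1348, 1502 and 1476 TPM (2.15 ± 0.20, adjusted p = 7.9e-05), while 9 of 29 sterol and fatty acid genes rose in all and 1 fell (4 rose without PBS mouse 1). Saa3, an acute phase protein, was at 131, 5.50 and 59.9 TPM in PBS and 23.2, 76.8 and 37.9 TPM in bleomycin lungs and did not pass (0.16 ± 0.88, adjusted p = 0.92), with values from -1.10 without PBS mouse 2 to 1.07 without PBS mouse 1. Lcn2, lipocalin, an iron-binding defence protein, rose by 2.04. Heart muscle markers fell in 5 of 7 cases, but in 0 without PBS mouse 1, 1 without PBS mouse 2 and 2 without bleomycin mouse 1 or 2.

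The study holds 2 other comparisons of bleomycin with PBS lungs, of mice on a normal diet at day 21 after 1.25 mg/kg and of mice at day 14 after 3.5 mg/kg with injections of 10% DMSO, each with its own PBS lungs. For the high-dose experiment, the percent of DMSO and a start of injections at day 3 are given for the bleomycin mice. They are not given for its PBS mice, whose group name holds DMSO. Time, dose, DMSO injections and labelled batch differ between the experiments, and the tables were normalized separately. Values are therefore set side by side without a test. Over 16774 genes the log2 differences of the low dose correlated at r = 0.647 with those of the high dose at day 14, and over 16839 genes at r = 0.356 with those at day 21. Of the genes called higher here, 90.6% were higher at the high dose, against 49.3% of all genes, and 89.1% at day 21, against 76.7%. Of those called lower here, 91.1% were lower at the high dose, against 50.7% of all genes, but 48.2% at day 21, against 23.3%.

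Hmox1 was lower after bleomycin in both day 14 experiments and higher at day 21. It stood at 5079 to 6188 TPM in the PBS lungs of the high-dose experiment with a difference of -3.89 there, but at 70.2 to 171 TPM in the PBS lungs of the day 21 experiment, where the difference was 2.06. The bleomycin lungs of all 3 experiments lay closer together, at 122 to 230 TPM here, 172 to 710 TPM at the high dose and 332 to 934 TPM at day 21. Chac1 was also lower in the PBS lungs of the day 21 experiment, with 54.6 to 95.1 TPM in the high-dose experiment and 3.78 to 9.73 TPM at day 21. The same held for Srxn1, at 1350 to 1543 TPM at the high dose and 90.9 to 306 TPM at day 21. For Osgin1 the PBS ranges were 460 to 679 and 28.8 to 37.0 TPM, and for Gclc 2286 to 2589 and 293 to 664 TPM. Slc7a11, Trib3, Asns and Hspa1b were lower as well, with no overlap between these PBS groups. Stress genes other than Hmox1 differed in direction at day 21, each set against its own PBS lungs. The differences there were -1.60 for Slc7a11, -0.38 for Srxn1, -0.39 for Trib3, -0.76 for Asns and -0.43 for Hspa1b. They were 0.49 for Chac1, 0.16 for Gclc, 1.24 for Osgin1 and 1.38 for Slc7a5. Among these genes, bleomycin and PBS lungs overlapped at day 21 in all but Osgin1 and Slc7a5. Chac1 and Gclc lay below the median of all genes at day 21, 0.56, and Osgin1 and Slc7a5 above it. The median of the antioxidant list was -1.05 here, -1.97 at the high dose and -0.88 at day 21. There 20 of its 35 genes were lower in every bleomycin lung than in any PBS lung, and 6 were higher. Of all 18593 genes at day 21, 2286 were lower and 9480 higher in the same sense. The median of the amino acid shortage list was -1.18 here, -0.86 at the high dose and 0.21 at day 21, each below the median of all genes, which was 0.0855, -0.019 and 0.56. That of the list of p53 targets and senescence genes was -0.22, -0.26 and 1.30, and that of the neutrophil list -2.15, 1.14 and 3.27. Cell division (1.36, 1.80 and 1.61) and fibrillar collagens (2.11, 3.72 and 3.49) had positive medians in each.

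**Figure D5:**
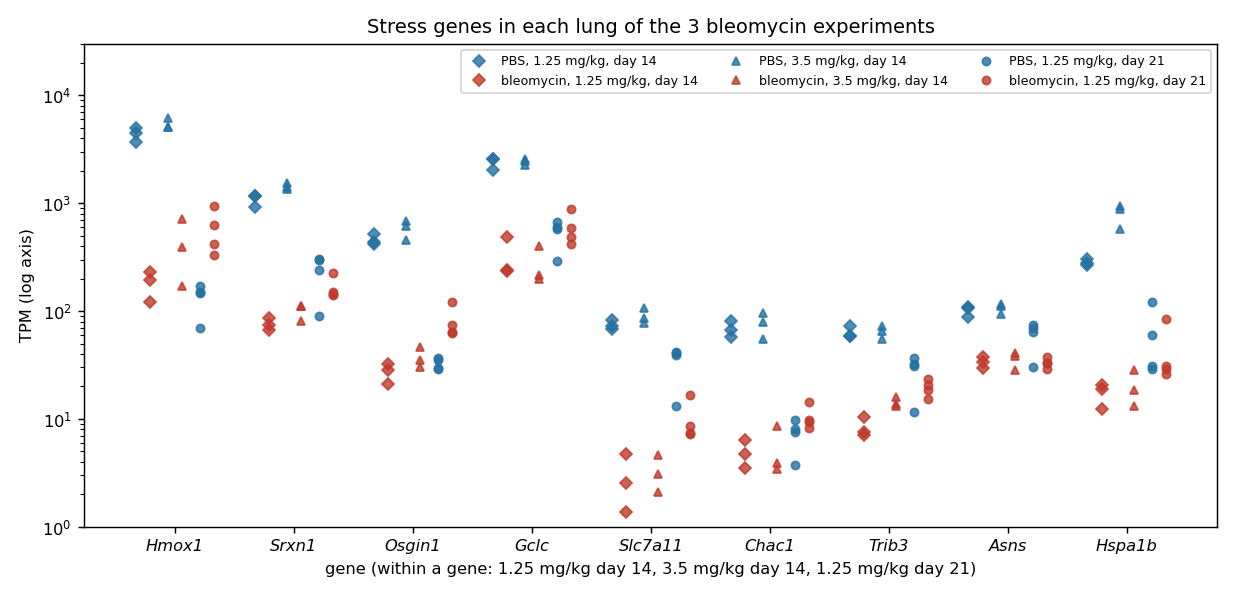
TPM (log axis) of 9 stress genes in each lung of the 3 experiments; blue symbols are PBS and red symbols bleomycin, and within a gene the groups run from 1.25 mg/kg at day 14 to 3.5 mg/kg at day 14 to 1.25 mg/kg at day 21. Hmox1 in PBS lungs is 3705 to 4937 TPM in the first experiment and 70.2 to 171 TPM in the last, while its bleomycin lungs differ less.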

How the data were processed

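Poly(A) RNA libraries of whole lungs were grouped by their titles and treatment labels. The values are TPM, calculated by the authors over all genes of a deposited table; the submitters' processing notes name HISAT2, featureCounts, Subread, Trim Galore, FastQC and DESeq2 without roles or versions, and mm39 as the build. Total counts were not used here, so the depth is unknown and no counting interval is given. Genes without a symbol (0.255 to 0.327% of TPM) were left out and 27 repeated entries added.

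Genes reaching a TPM of 1 in 3 or more of the 9 libraries of the table were taken as log2(TPM + 1). They were fitted with group means and a mean-variance trend in limma 3.58.1 (R 4.3.3). The third group, bleomycin with branched-chain amino acid water, counted in the filter and in the estimate of the spread. With the 6 compared libraries alone, 16439 genes were tested, with 2224 higher and 1295 lower. The test is two-sided with Benjamini-Hochberg adjustment over all genes, called at 0.05; every adjusted p is from limma. SE is that of the fitted log2 difference. The fit was tested on simulated data. Nothing says that lungs of a group were separate litters or days, so p-values measure the spread between these lungs.

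Named genes are the 12 largest rises and falls among called genes whose mean TPM reached 5 and whose groups were separate, the 3 largest called members of each list, and 22 fixed genes, of which the text gives part. The comparison, members, lists and rules were chosen with earlier results of these data known. Promoters were matched by symbol to the RefSeq table.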

Additional observations from a re-analysis of the deposited data

Results flagged for a closer look

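Several genes moved in opposite directions in different experiments, with every bleomycin lung of each experiment on its own side of its PBS lungs. The differences between experiments were not tested. Of all 18593 genes at day 21, 9480 were higher in every bleomycin lung than in any PBS lung and 2286 were lower, with a median of 0.56. The day 21 difference of Arntl, 0.48, was below that median. Of all 18151 genes at the high dose, 4455 were higher and 3388 lower in the same sense. At day 21 the log2 difference was -0.55 for Retnla (3.81 here), 4.02 for Csf3r (-3.29 here), 2.20 for Plk3 (-2.07 here), 1.38 for Sesn2 (-1.57 here) and 2.06 for Hmox1 (-4.62 here). It was 1.24 for Osgin1 (-4.03 here), 1.38 for Slc7a5 (-2.80 here), 1.73 for Fosl1 (-3.37 here), 2.06 for Slfn4 (-3.98 here), 1.71 for Gdf15 (-1.36 here), 1.07 for Slc2a1 (-1.42 here) and 0.48 for Arntl (-0.78 here). At the high dose it was -1.75 for Aplnr (0.95 here), -2.79 for Dbp (1.02 here) and 1.78 for Arntl. The call of Aplnr here is lost without bleomycin mouse 3 (adjusted p in limma = 0.051), and that of Arntl without PBS mouse 2 or 3 or bleomycin mouse 1 or 3.

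In the day 21 experiment, with 4 lungs per group, 1 lung passed a 95% threshold for standing apart from the others of its group for C1qa after bleomycin (1302 TPM), Slc7a11 in PBS (13.1 TPM) and after bleomycin (16.6 TPM), Srxn1 after bleomycin (225 TPM) and Hspa1b after bleomycin (85.0 TPM). The threshold was applied to both groups for these genes and for Spp1, S100a8, Col1a1, Mki67, Cdkn1a, Scgb1a1 and Sftpc. It was also applied for Hmox1, Osgin1, Gclc, Chac1, Trib3, Asns and Myh6, and none of the added genes passed. For 1 group of independent values chance passes that threshold in about 1 in 20 cases, but the genes share lungs. The PBS lung low in Slc7a11 was also the lowest of its group in Hmox1 (70.2 against 148 to 171 TPM), Srxn1 (90.9 against 239 to 306 TPM), Gclc, Chac1, Trib3 and Asns. The bleomycin lung high in Slc7a11 was also the one high in Srxn1, and the highest of its group in Hmox1, Osgin1, Gclc and Chac1. Apart from Srxn1 after bleomycin, these values did not pass the threshold.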

How the results depend on the processing

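Counts of called genes ran from 2571 to 3514 when 1 lung was left out, from 1664 to 2509 for higher and 675 to 1005 for lower genes. Limma array weights gave 6265 calls with 2531 lower. Centring each library on its median gave 2116 lower genes, and rescaling without mitochondrial, haemoglobin and Scgb1a1 transcripts, chosen after seeing the data, gave 2286. Pseudocounts of 0.1 and 0.5 gave 3746 and 3777 calls, a minimum TPM of 5 gave 3323, no filter 2902 of 32534 genes, rescaling without mitochondrial and haemoglobin transcripts 3559, the 6 compared libraries alone 3519 and no trend 3663. Replicate numbers did not pair the lungs (deviations of same-numbered lungs correlated at -0.252, -0.241 and -0.092); a fit with the replicate number as a block gave 3026 calls, 2021 higher and 1005 lower.

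The settings were also compared over a set of 106 genes, most but not all of them given above. Of 1793 gene and setting pairs, 1713 kept their direction and side of the threshold, 61 lost the call, 12 gained it and 7 reversed. Ltbp4, Zmat3, F3, Serpine2, Il11, Lif, Areg and Cxcl12 were not in this set. None of the reversed genes was called as reported. Sftpc was -0.057 after centring and -0.15 without Scgb1a1 in the total, and ran from -0.090 to 0.18 with 1 lung left out. Saa3 was -0.0049 without Scgb1a1 in the total and ran from -1.10 to 1.07 with 1 lung left out. Acta2 ran from -0.079 to 0.52 with 1 lung left out. List counts moved as follows. Without the filter on low values 1 plasma cell gene and 3 dendritic cell genes rose, 1 heart muscle gene and 1 ciliated gene fell, and 4 chemokine receptors rose. With a minimum TPM of 5, 2 T cell, 1 B cell and 3 dendritic cell genes rose. Array weights gave 22 interferon genes higher, 8 neutrophil genes lower and 12 genes of the p53 and senescence list lower, and the total without Scgb1a1 gave 11 of that list lower. None of the 2 rises in branched-chain amino acid breakdown was called without the trend, with the block, with the 6 libraries alone or in either rescaling. The causes were not tested. With TPM alone, low genes cannot be given a counting error.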

Other observations

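Of 20 coagulation and fibrinolysis genes 7 rose and 2 fell in limma. F3, tissue factor, which starts clotting, fell by 2.12 on the log2 scale (adjusted p = 1.0e-04), while Serpine2, a protease inhibitor, rose by 1.44 (adjusted p = 1.3e-04). Of 21 cytokines 2 rose and 2 fell (1 rose without PBS mouse 1 or bleomycin mouse 3, and 1 fell without PBS mouse 1): Il11, a profibrotic cytokine of the IL-6 family, rose by 1.00 (adjusted p = 0.0089) and Lif, of the same family, by 1.05, whereas Areg, an EGF receptor ligand, fell by 0.99. Gdf15, a stress hormone, went from 55.4, 46.9 and 33.6 TPM to 9.12, 25.9 and 19.5 TPM (adjusted p = 0.014; 0.056 without PBS mouse 1). Of 14 CXC chemokines 4 rose and 2 fell (1 fell without any 1 lung other than PBS mouse 1), with Cxcl12, which retains leukocytes and progenitors, higher by 1.27.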
